A study of Mus musculus with 9 samples.

Results

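The interferon regulatory factors are a family of transcription factors, and 8 of their genes (Irf1, Irf2, Irf3, Irf4, Irf5, Irf7, Irf8 and Irf9) were followed here through every library of a mouse myeloid data set. The members were taken by gene symbol from a table of 54532 genes, and all 8 passed the filter that left 12289 genes for testing. Total RNA of cells labelled as myeloid and as white cells, from C57BL/6 mice aged 6 to 8 weeks, had been sequenced in 9 libraries. These form 3 groups of 3 libraries, named A, B and C in each: KO, with the genotype label SOCS3 KO, and Gr_1 and fl, both with the genotype label wild type. The labels do not spell out the names Gr_1 and fl, the promoter or method behind the knockout, or any treatment. Nor do they say that each library came from its own animal, so the p-values below reflect the spread among 3 libraries per group, which may be technical. Only KO libraries A and B can be told apart as different animals, by the sex-linked genes given below. The series concerns loss of Socs3, an inhibitor of cytokine signalling, and how early-stage suppressor cells of the myeloid line differentiate.

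Interferon regulatory factors share a DNA-binding domain that reads GAAA repeats, the core of the interferon-stimulated response element (ISRE). Irf3 and Irf7 are switched on by phosphorylation downstream of nucleic acid sensors and drive interferon genes, and Irf5 acts below Toll-like receptors on inflammatory cytokine genes. Irf9 is part of the complex that answers type I interferon, Irf1 is induced by interferon gamma, and Irf2 binds the same sites as Irf1 and can oppose it. Irf4 and Irf8 bind weakly alone and pair with PU.1 (Spi1) on composite elements. In mouse bone marrow Irf8 is known for favouring monocytes and dendritic cells over granulocytes, and Irf4 for its roles in lymphocytes and dendritic cells.

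Recovered depth was 18.3 to 21.5 M fragments per library. The M fragments implied by the deposited values were below the recovered ones in every Gr_1 library and above them in every other library. Scaled to recovered fragments, Gr_1 would stand lower against both other groups than in the values below. The effect on the calls was not tested. Socs3 itself was at 9.23, 6.76 and 8.37 FPKM (fragments per kilobase of exon per M fragments) in the KO libraries A, B and C, against 37.0, 36.6 and 33.0 FPKM in Gr_1 and 3.87, 4.02 and 3.40 FPKM in fl. The gene was therefore not lower in the libraries labelled KO than in fl, so that group is called KO-labelled below and each direction drawn from it rests on the label. The KO-labelled libraries also differed among themselves. The female-specific transcript Xist stood at 0.0028, 58.5 and 26.3 FPKM in libraries A, B and C, and 4 Y-linked genes summed to 26.5, 0 and 14.2 FPKM. Library C thus held both signals, while Xist was at 0.0104 FPKM or less in every Gr_1 and fl library. In those libraries the 4 Y-linked genes summed to 16.6 to 39.3 FPKM. By these genes KO library B read as female and every Gr_1 and fl library as male. Comparisons with the KO group thus also differ in sex, and its part was not tested. Library C lay between A and B for 61.4% of the genes tested, while each other library lay between the remaining pair of its group for 15.2 to 43.9% of them. Whether library C is independent of A and B was not tested; if it is not, the KO-labelled group has fewer than 3 independent libraries and its SD and p-values are too small. Counts for the KO-labelled group are therefore also given without library C where they differ. The granulocyte genes S100a8 and S100a9 were abundant in all 9 libraries and made up most of the sum of 16 late neutrophil markers, which was 48700 to 71300 FPKM in KO-labelled libraries, 128000 to 132000 FPKM in Gr_1 and 44100 to 46400 FPKM in fl. Without that pair, left out after their values were seen, the other 14 summed to 1420 to 3340 FPKM in KO-labelled libraries, 10700 to 11500 FPKM in Gr_1 and 597 to 629 FPKM in fl, where Stfa2 was at 0.

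The promoter windows of 4 members are shown because Irf5 and Irf8 differed in all 3 comparisons below and because Irf1, Irf2 and Irf8 were the members whose windows held a searched motif. All 8 members had a window in the RefSeq promoter table (11 windows of 300 bases, from 250 bases before to 50 bases after a transcript start, build GRCm38.p6). Capitals mark matches, on either strand, to 3 motifs: GAAA and GAAA with any 2 bases between (an ISRE core), TTC and GAA with any 3 bases between (the gamma-activated site, GAS, bound by STAT dimers), and GGAA and GAAA with any 2 bases between (the composite element for PU.1 with Irf4 or Irf8). Each window is on the plus strand and reads 5′ to 3′.
Irf8, chr8:120736108-120736407: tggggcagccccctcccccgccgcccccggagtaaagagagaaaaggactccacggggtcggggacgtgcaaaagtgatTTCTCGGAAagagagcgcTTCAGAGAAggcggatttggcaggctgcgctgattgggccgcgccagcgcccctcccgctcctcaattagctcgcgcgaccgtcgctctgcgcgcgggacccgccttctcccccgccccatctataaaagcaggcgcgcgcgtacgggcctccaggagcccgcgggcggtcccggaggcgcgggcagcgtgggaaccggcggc
Irf5, chr6:29526375-29526674: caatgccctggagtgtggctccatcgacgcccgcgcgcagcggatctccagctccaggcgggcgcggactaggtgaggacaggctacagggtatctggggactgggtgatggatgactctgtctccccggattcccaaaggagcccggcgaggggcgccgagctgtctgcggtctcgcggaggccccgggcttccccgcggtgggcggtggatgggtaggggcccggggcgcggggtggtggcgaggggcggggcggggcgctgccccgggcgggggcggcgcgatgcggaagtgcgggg
Irf1, chr11:53769764-53770063: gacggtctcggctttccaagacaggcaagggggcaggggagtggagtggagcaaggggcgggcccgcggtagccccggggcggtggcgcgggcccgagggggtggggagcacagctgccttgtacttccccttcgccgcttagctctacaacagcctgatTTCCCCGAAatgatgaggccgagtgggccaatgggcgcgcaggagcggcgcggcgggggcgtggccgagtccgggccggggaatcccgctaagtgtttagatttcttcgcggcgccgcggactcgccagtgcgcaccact
Irf2, chr8:46739495-46739794: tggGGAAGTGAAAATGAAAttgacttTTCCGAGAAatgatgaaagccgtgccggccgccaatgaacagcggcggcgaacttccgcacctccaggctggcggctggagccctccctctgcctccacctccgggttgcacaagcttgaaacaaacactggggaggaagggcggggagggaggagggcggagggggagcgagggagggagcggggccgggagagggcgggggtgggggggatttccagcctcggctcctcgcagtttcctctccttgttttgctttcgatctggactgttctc
Irf8 held 2 GAS matches, TTCTCGGAA beginning 171 bases and TTCAGAGAA beginning 153 bases before the start. Irf1 held 1 GAS match, TTCCCCGAA, beginning 90 bases before the start. Irf2 held the composite match GGAAGTGAAA and the ISRE match GAAAATGAAA, which overlap by 4 bases, followed by the GAS match TTCCGAGAA. Among all 32817 windows of the table, 3.43% held the ISRE core, 8.29% the GAS and 2.72% the composite element. A match describes letters in a window and is no evidence of binding. These letters were not found in the windows of Irf3, Irf4, Irf5, Irf7 and Irf9, nor in the second windows of Irf1, Irf8 and Irf9.

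The family was weighted differently in each group. Irf5 was the most abundant member in KO-labelled libraries (33.5 ± 4.69 FPKM) and in fl (84.9 ± 1.12 FPKM), with no overlap with the next member in either group (SD, n = 3 each). In Gr_1 the top of the order was shared by Irf7 (24.3 ± 4.33 FPKM) and Irf1 (24.1 ± 0.307 FPKM), whose ranges overlapped. The lowest member was Irf4 in KO-labelled libraries (3.66 ± 0.561 FPKM) and in fl (5.76 ± 0.385 FPKM), but Irf8 in Gr_1 (9.90 ± 0.378 FPKM). Between the extremes the ranges of neighbours mostly overlapped: in KO-labelled libraries Irf1, Irf3, Irf8, Irf7, Irf9 and Irf2 followed each other without a gap. In Gr_1, Irf5 and Irf9 overlapped each other below Irf1, and Irf3, Irf2 and Irf4 formed the next overlapping run. In fl, Irf8, Irf7, Irf3, Irf1 and Irf9 ran together below Irf5, with Irf2 and then Irf4 set apart beneath them. As a share of the summed FPKM of the 8 members, Irf5 held 27.0, 28.5 and 27.8% in KO-labelled libraries, 14.9, 14.4 and 15.4% in Gr_1 and 42.3, 45.2 and 42.8% in fl. Irf4 held 3.04, 3.30 and 2.79% in KO-labelled libraries, 9.40, 8.33 and 11.8% in Gr_1 and 2.91, 2.81 and 3.10% in fl.

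**Figure D1:**
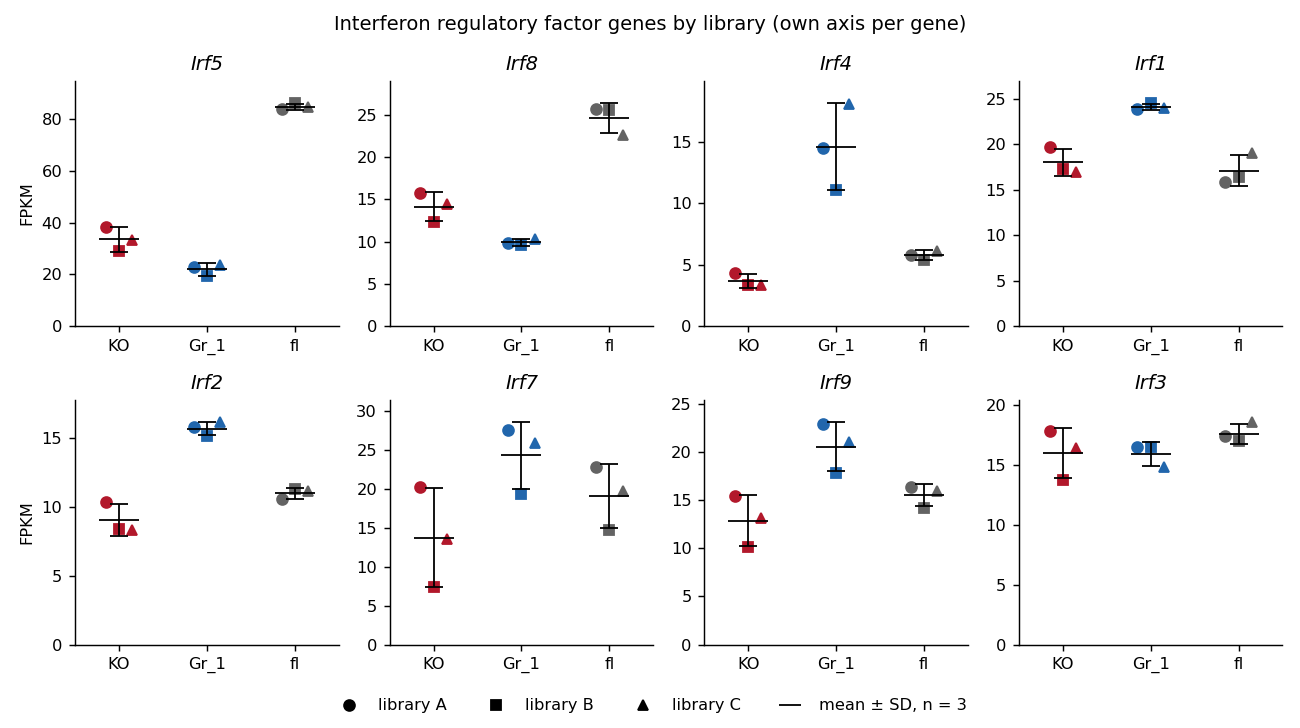
Level of each of the 8 members in FPKM (vertical axis, from 0, scaled to each gene) by group, with KO, Gr_1 and fl from left to right; points are libraries, and the bar and whiskers are the mean and SD of 3 libraries. Irf5 and Irf8 are highest in fl and lowest in Gr_1, Irf4 is highest in Gr_1 with every library at 11.1 FPKM or more, and Irf3 overlaps between KO and both other groups.

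**Figure D2:**
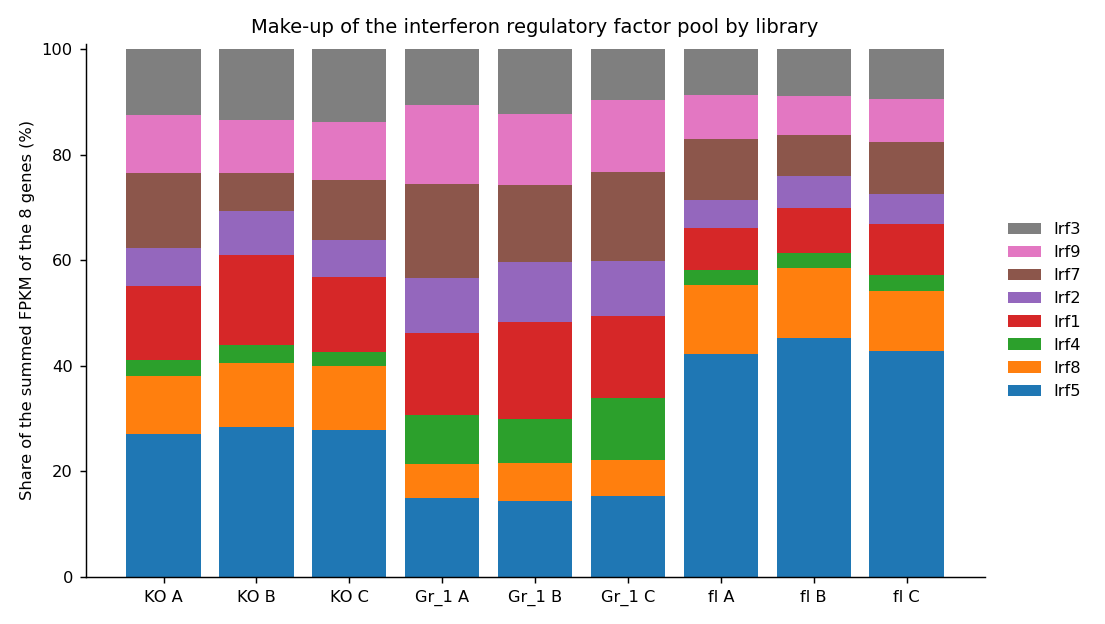
Share of each member in the summed FPKM of the 8 members (percent) in each of the 9 libraries, ordered KO, Gr_1 and fl. Irf5, at the foot of each bar, takes 27.0 to 28.5% of the sum in KO-labelled libraries, 14.4 to 15.4% in Gr_1 and 42.3 to 45.2% in fl.

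In KO-labelled libraries against fl, Irf5 and Irf8 fell and no member rose. By limma (called at an adjusted p under 0.05, Benjamini-Hochberg over all genes tested), 2 of the 8 members were lower and 0 were higher. Neither the unadjusted p under 0.05 nor voom gave a higher member (0 each). Of all genes tested, 11.0% were called in this comparison, 6.52% as lower and 4.48% as higher. The libraries of the groups did not overlap for 4 of the 8 members (Irf2, Irf4, Irf5 and Irf8), against 31.4% of all genes tested. The median log2 change of the members was -0.40, against -0.01 for all genes tested. In Gr_1 against fl, 4 members were higher and 2 lower, where 61.4% of all genes tested were called, and 7 members had no overlap, where 67.5% of all genes had none. In KO-labelled libraries against Gr_1, 2 members were higher and 5 lower, where 55.7% of all genes were called, and 6 members had no overlap, where 68.2% of all genes had none. Without KO library C, 2 members were called in KO against fl, 5 in Gr_1 against fl and 6 in KO against Gr_1. Of the 12175 genes tested in that setting, 573, 7106 and 5635 were called in the same order. The 3 comparisons share libraries, so their values are set side by side and not counted as separate evidence.

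**Figure D3:**
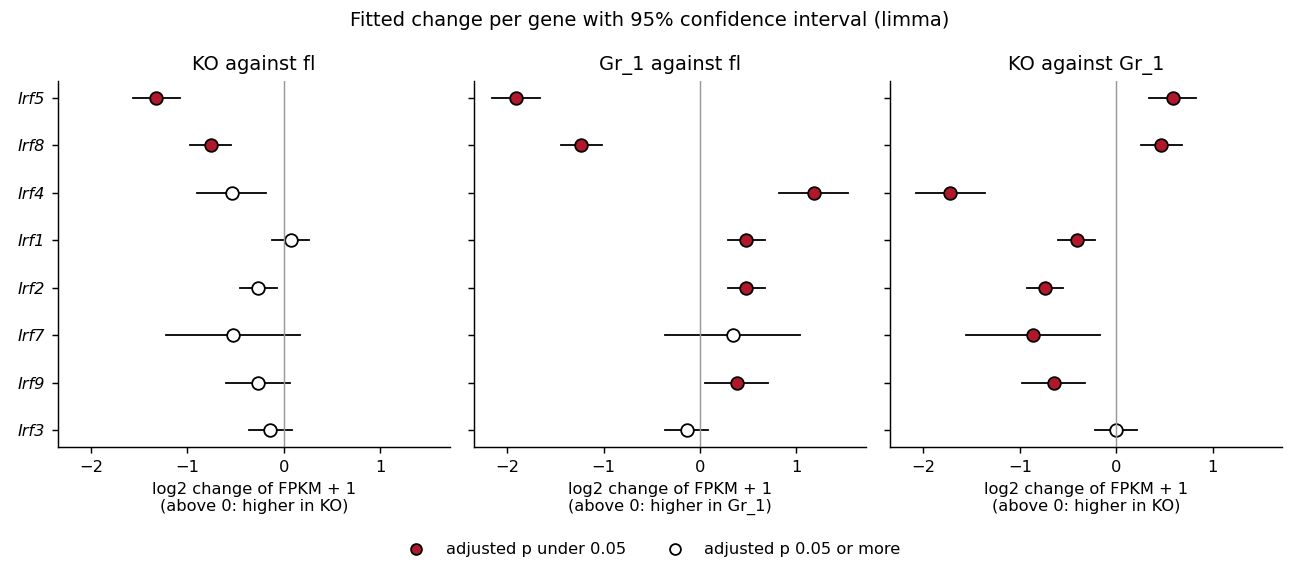
Fitted log2 change of each member on the log2(FPKM + 1) scale with its 95% interval (horizontal axis) in KO against fl, Gr_1 against fl and KO against Gr_1; filled points passed an adjusted p under 0.05. Irf5 lies at -1.33 in KO against fl, -1.91 in Gr_1 against fl and 0.59 in KO against Gr_1, and Irf4 lies at -1.72 in KO against Gr_1.

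Irf5 (ENSMUSG00000029771; chromosome 6, 29526625 to 29541871, plus strand, GRCm38) had 38.3, 28.9 and 33.2 FPKM in the KO-labelled libraries A, B and C, 22.9, 19.2 and 23.7 FPKM in Gr_1 and 84.0, 86.2 and 84.7 FPKM in fl. The groups did not overlap, with every fl library the highest and every Gr_1 library the lowest. Irf5 was 2.54-fold lower in KO-labelled libraries than in fl (log2 change -1.33 ± 0.11 SE, limma adjusted p = 0.000456). It was 3.87-fold lower in Gr_1 than in fl (-1.91 ± 0.11, limma adjusted p = 2.95e-06) and 1.53-fold higher in KO-labelled libraries than in Gr_1 (0.59 ± 0.11, limma adjusted p = 0.00192). These calls held in all 17 alternative fits run for each. The gene shares 411 bases, 14.1% of its exon length, with Tnpo3 on the other strand, which was at 5.77, 5.21 and 5.32 FPKM in KO-labelled, Gr_1 and fl libraries on average. The strand used in counting is not stated.

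Irf8 (ENSMUSG00000041515; chromosome 8, 120736358 to 120756694, plus strand) had 15.7, 12.3 and 14.4 FPKM in KO-labelled libraries A, B and C, 9.88, 9.54 and 10.3 FPKM in Gr_1 and 25.7, 25.6 and 22.6 FPKM in fl. It had the order of Irf5, with fl highest, Gr_1 lowest and no overlap. The level was 1.74-fold lower in KO-labelled libraries than in fl (log2 change -0.76 ± 0.09 SE, limma adjusted p = 0.00174) and 2.49-fold lower in Gr_1 than in fl (-1.23 ± 0.09, limma adjusted p = 1.01e-05). It was 1.43-fold higher in KO-labelled libraries than in Gr_1 (0.47 ± 0.09, limma adjusted p = 0.00265). Without KO library C the adjusted p of Irf8 was 0.0108 in KO against fl. Irf5 differed more than Irf8 between Gr_1 or KO-labelled libraries and fl, so the ratio of their FPKM moved: it was 2.44, 2.36 and 2.30 in KO-labelled libraries, 2.32, 2.02 and 2.30 in Gr_1 and 3.26, 3.37 and 3.75 in fl. All fl ratios were above all others, and the exact two-sided permutation test gave its smallest possible p, 0.1, when KO-labelled libraries or Gr_1 were set against fl.

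Monocyte markers moved with Irf5 and Irf8. Of 16 such markers, 14 were lower in KO-labelled libraries than in fl (11 without KO library C), 15 were lower in Gr_1 than in fl, and 12 were higher and 1 lower in KO-labelled libraries than in Gr_1 (11 and 1 without KO library C; limma). Against fl 0 markers were higher in either group; by unadjusted p under 0.05 the higher ones numbered 0 in KO-labelled libraries and 1 in Gr_1, and by voom 0 in each. Leaving out Lyz2, a choice made after its values were seen, the 15 others summed to 1940 to 1950 FPKM in KO-labelled libraries, 999 to 1050 FPKM in Gr_1 and 2560 to 2640 FPKM in fl. Ear2 and Ly6c2 were the largest parts of that sum. Neither was called in KO-labelled libraries against fl (limma adjusted p = 0.303 and 0.244). Lyz2, the myeloid lysozyme gene, was at 53.2 to 59.8 FPKM in KO-labelled libraries, 10500 to 10800 FPKM in Gr_1 and 8670 to 10000 FPKM in fl. In the other direction, 13 of the 16 late neutrophil markers were higher in KO-labelled libraries than in fl (11 without KO library C) and all 16 were higher in Gr_1 than in fl. Of 11 early granulocyte markers, 3 were higher and 6 lower in Gr_1 than in fl; Elane, a protease of immature granulocytes, averaged 92.7 ± 27.2 FPKM in Gr_1 and 2400 ± 530 FPKM in fl. Plasmacytoid dendritic cell markers summed to 74.8 to 97.2 FPKM in KO-labelled libraries, 99.6 to 145 FPKM in Gr_1 and 84.5 to 105 FPKM in fl. Of 7 tested, 3 were higher and 0 lower in KO-labelled libraries than in fl (0 and 0 without KO library C). In Gr_1 against fl 4 were higher and 2 lower. Conventional dendritic cell markers summed to 39.3 to 42.3 FPKM in KO-labelled libraries, 47.8 to 50.8 FPKM in Gr_1 and 48.9 to 58.4 FPKM in fl. Of 6 tested, 0 were higher and 2 lower in KO-labelled libraries than in fl (0 and 1 without KO library C, 1 and 2 by voom). In Gr_1 against fl 3 were higher and 3 lower. Other cell types also moved between the groups. Of 8 tested NK cell markers, 5 were higher in KO-labelled libraries than in fl (1 without KO library C); without Nkg7, which holds most of their sum and was left out after its values were seen, the others summed to 23.3 to 48.4 FPKM in KO-labelled libraries, 3.78 to 6.68 FPKM in Gr_1 and 10.5 to 15.4 FPKM in fl. T cell markers were higher in KO-labelled libraries than in fl for 7 of 7 tested (5 without KO library C), with sums of 23.9 to 34.4 FPKM in KO-labelled libraries, 12.7 to 13.8 FPKM in Gr_1 and 5.47 to 8.24 FPKM in fl. Of 12 eosinophil, basophil and mast cell markers, 7 were higher in KO-labelled libraries than in fl (2 without KO library C) and 10 were higher than in Gr_1. Of 12 erythroid and platelet markers, 10 were higher in Gr_1 than in fl, or 8 when values were rescaled without the 10 most abundant genes. As the base for these marker counts, 30.0% of all genes tested were higher and 31.4% lower in Gr_1 than in fl. Against Gr_1, 26.7% were higher and 28.9% lower in KO-labelled libraries. In such bulk RNA, fewer cells of a type and less RNA per cell cannot be told apart, and the part of cell composition in the Irf5 and Irf8 differences was not tested.

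Irf4 (ENSMUSG00000021356; chromosome 13, 30749226 to 30766976, plus strand) differed in the opposite direction to Irf8 in both comparisons with Gr_1, and lay lower, as Irf8 did, in KO-labelled libraries than in fl. It had 4.31, 3.35 and 3.33 FPKM in KO-labelled libraries A, B and C, 14.5, 11.1 and 18.1 FPKM in Gr_1 and 5.78, 5.36 and 6.13 FPKM in fl. Every Gr_1 library was above every fl library, and every KO-labelled library was below both groups. Irf4 was 2.53-fold higher in Gr_1 than in fl (log2 change 1.18 ± 0.16 SE, limma adjusted p = 0.000228) and 3.98-fold lower in KO-labelled libraries than in Gr_1 (-1.72 ± 0.16, limma adjusted p = 5.96e-05). Against fl the change in KO-labelled libraries was -0.54 ± 0.16 and missed the threshold (limma adjusted p = 0.0609), while it passed in 6 of 17 alternative fits, among them voom on recovered fragments (adjusted p = 0.0351). The Irf8 to Irf4 ratio of FPKM was 3.64, 3.67 and 4.33 in KO-labelled libraries, 0.683, 0.860 and 0.568 in Gr_1 and 4.45, 4.76 and 3.68 in fl. Gr_1 was thus the group with more Irf4 than Irf8 in each library. For KO-labelled libraries against fl the ratios overlapped (exact two-sided permutation p = 0.2), and for both comparisons with Gr_1 the test gave 0.1, its smallest possible p. B cell markers moved with Irf4 in the comparisons with Gr_1: 14 of 14 were higher in Gr_1 than in fl and 12 of 14 were lower in KO-labelled libraries than in Gr_1. Between KO-labelled libraries and fl 0 of 14 were called by limma (by unadjusted p under 0.05, 1 higher and 1 lower; by voom, 0). They summed to 484 to 609 FPKM in KO-labelled libraries, 1130 to 1180 FPKM in Gr_1 and 405 to 508 FPKM in fl, most of it from the immunoglobulin genes Ighm and Igkc. Without those, left out after their values were seen, the other 12 summed to 49.6 to 97.9 FPKM in KO-labelled libraries, 383 to 419 FPKM in Gr_1 and 83.3 to 107 FPKM in fl. Plasma cell markers summed to 86.4 to 102 FPKM in KO-labelled libraries, 97.5 to 118 FPKM in Gr_1 and 93.3 to 108 FPKM in fl. Xbp1, the largest part of that sum, averaged 63.7 FPKM in KO-labelled libraries, 45.4 FPKM in Gr_1 and 76.1 FPKM in fl. Of 4 tested plasma cell markers, 3 were higher and 1 lower in Gr_1 than in fl. Against Gr_1, 1 was higher and 2 lower in KO-labelled libraries, and against fl 0 were called (limma). The part of B cells and plasma cells in the Irf4 values was not tested.

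**Figure D4:**
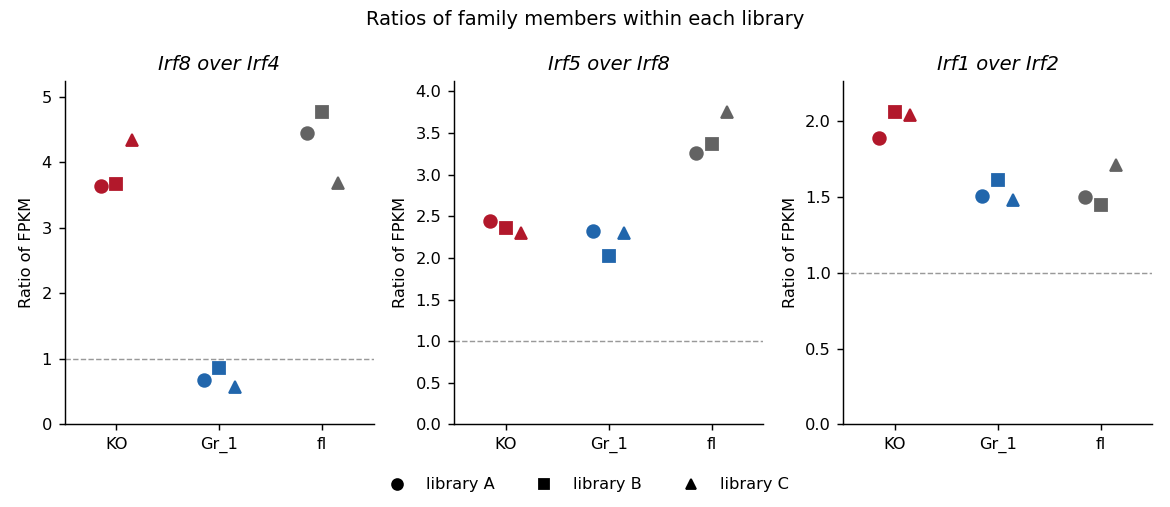
Ratios of the FPKM of pairs of members within each library (vertical axis, from 0), by group from left to right KO, Gr_1 and fl; each point is 1 library. The Irf8 to Irf4 ratio is under 1 in the 3 Gr_1 libraries and 3.64 to 4.76 in the 6 others, and the Irf5 to Irf8 ratio is highest in fl.

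Irf1 and Irf2, the pair that share binding sites, were both higher in Gr_1. Irf1 (ENSMUSG00000018899; chromosome 11, 53770014 to 53778374, plus strand) had 19.7, 17.3 and 16.9 FPKM in KO-labelled libraries A, B and C, 23.9, 24.5 and 24 FPKM in Gr_1 and 15.8, 16.4 and 19 FPKM in fl. Gr_1 stood above both other groups, which overlapped each other. Irf1 was 1.41-fold higher in Gr_1 than in fl (log2 change 0.48 ± 0.08 SE, limma adjusted p = 0.00105) and 1.34-fold lower in KO-labelled libraries than in Gr_1 (-0.41 ± 0.08, limma adjusted p = 0.00306). Between KO-labelled libraries and fl the log2 change was 0.07 with a 95% interval of -0.12 to 0.26 (limma adjusted p = 0.642).

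Irf2 (ENSMUSG00000031627; chromosome 8, 46739732 to 46847458, plus strand) had 10.4, 8.43 and 8.30 FPKM in KO-labelled libraries A, B and C, 15.8, 15.2 and 16.2 FPKM in Gr_1 and 10.6, 11.3 and 11.2 FPKM in fl. The 3 groups did not overlap, though KO library A lay close to fl library A. Irf2 was 1.43-fold higher in Gr_1 than in fl (0.48 ± 0.08 SE on the log2 scale, limma adjusted p = 0.0011) and 1.74-fold lower in KO-labelled libraries than in Gr_1 (-0.74 ± 0.08, limma adjusted p = 0.000152). The change in KO-labelled libraries against fl was -0.27 ± 0.08 and was not called (limma adjusted p = 0.0813), except when KO library A was left out (adjusted p = 0.0131). The Irf1 to Irf2 ratio was 1.89, 2.06 and 2.04 in KO-labelled libraries, 1.51, 1.61 and 1.48 in Gr_1 and 1.5, 1.45 and 1.71 in fl. KO-labelled libraries had the highest ratios without overlap (exact two-sided permutation p = 0.1 against each other group, the smallest possible), and Gr_1 and fl overlapped (exact p = 0.9).

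The members closest to the interferon response gave smaller or less even differences. Irf9 (ENSMUSG00000002325; chromosome 14, 55603571 to 55610030, plus strand), the DNA-binding subunit of the type I interferon response complex, had 15.4, 10.1 and 13.2 FPKM in KO-labelled libraries A, B and C, 22.9, 17.8 and 21.1 FPKM in Gr_1 and 16.4, 14.2 and 16 FPKM in fl. Gr_1 lay above both other groups, which overlapped. Irf9 was 1.60-fold lower in KO-labelled libraries than in Gr_1 (-0.65 ± 0.14 SE on the log2 scale, limma adjusted p = 0.00494). Its 1.32-fold higher level in Gr_1 than in fl was called narrowly (0.38 ± 0.14, limma adjusted p = 0.0472). That call was lost on leaving out KO library C, Gr_1 library A or C, or any fl library, with adjusted p from 0.0655 to 0.147. With the title letter as a replicate block, the limma adjusted p was 0.00688 in Gr_1 against fl and 0.000989 in KO against Gr_1. Library A was highest and library B lowest in every group. The gene shares 123 bases of exon on the same strand with Rnf31, which was at 10.5 FPKM in KO-labelled libraries, 17.8 FPKM in Gr_1 and 10.4 FPKM in fl on average.

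Irf7 (ENSMUSG00000025498; chromosome 7, 141262706 to 141266481, minus strand), itself an interferon-induced gene, had 20.2, 7.42 and 13.6 FPKM in KO-labelled libraries A, B and C, 27.6, 19.4 and 25.9 FPKM in Gr_1 and 22.8, 14.7 and 19.7 FPKM in fl. KO library A lay inside the Gr_1 range and library B below every other library, so all groups overlapped. Irf7 was 1.77-fold lower in KO-labelled libraries than in Gr_1 (-0.86 ± 0.31 SE on the log2 scale, limma adjusted p = 0.0392). That call was lost without KO library B or C, Gr_1 library A or C, or fl library C (adjusted p from 0.0511 to 0.109). With the title letter as a replicate block, the limma adjusted p in KO against Gr_1 was 0.00355. In every group library A was highest and library B lowest, and the labels do not say what a letter shares. The change was -0.53 ± 0.31 in KO-labelled libraries against fl (limma adjusted p = 0.32) and 0.34 ± 0.31 in Gr_1 against fl (limma adjusted p = 0.362).

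Irf3 (ENSMUSG00000003184; chromosome 7, 44997648 to 45002848, plus strand), which is made constitutively and regulated mainly by phosphorylation, was called in none of the 3 comparisons (limma; by unadjusted p under 0.05 and by voom also 0). It had 17.8, 13.7 and 16.4 FPKM in KO-labelled libraries A, B and C, 16.5, 16.5 and 14.8 FPKM in Gr_1 and 17.4, 17.0 and 18.6 FPKM in fl. The Gr_1 libraries lay just below those of fl, and the KO-labelled range covered that of Gr_1. Its log2 change was -0.14 ± 0.10 SE both in KO against fl (limma adjusted p = 0.391) and in Gr_1 against fl (limma adjusted p = 0.232). For KO against Gr_1 the 95% interval was -0.22 to 0.22 and the direction turned with the scaling. Exons of Irf1, Irf3 and Irf7 share 3.40, 2.56 and 1.19% of their length with neighbouring genes.

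Genes upstream and downstream of the family were then counted in lists. As the base for these counts, 30.0% of all genes tested were higher and 31.4% lower in Gr_1 against fl, and 26.7% were higher and 28.9% lower in KO-labelled libraries against Gr_1. The ligands came out lowest: none of 18 interferon genes reached the filter, and 12 of them had 0 recovered fragments in all 9 libraries, where 3 fragments on 1 kilobase of exon correspond to between 0.136 and 0.187 FPKM. Ifng, encoding interferon gamma, averaged 0.504 FPKM in KO-labelled libraries, 0.0785 FPKM in Gr_1 and 0.386 FPKM in fl. Most of the ligands were thus at or near the limit of detection at this depth. Ifng had the most recovered fragments of them, 78 over the 9 libraries.

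Among sensors, adaptors and kinases that act upstream of the family, 7 of 30 were lower in KO-labelled libraries than in fl and 0 were higher (limma; by unadjusted p under 0.05 it was 1, by voom 0). The 7 became 4 without KO library C and 11 without KO library A. Unc93b1, the chaperone of endosomal Toll-like receptors, averaged 99.7 ± 14.1 FPKM in KO-labelled libraries and 163 ± 11.7 FPKM in fl (SD, n = 3 each; limma adjusted p = 0.00392). Ticam2, an adaptor of Toll-like receptor 4, averaged 2.82 ± 0.241 FPKM in KO-labelled libraries and 5.42 ± 0.382 FPKM in fl (limma adjusted p = 0.000959). In Gr_1 against fl, 8 were higher and 10 lower. Ikbke, a kinase of Irf3 and Irf7, averaged 4.75 ± 0.278 FPKM in Gr_1 and 14.9 ± 0.372 FPKM in fl (limma adjusted p = 1.45e-06), and Ddx58, the RNA sensor RIG-I, averaged 13.5 ± 1.14 FPKM in Gr_1 and 6.47 ± 1.15 FPKM in fl (limma adjusted p = 0.000478). In KO-labelled libraries against Gr_1, 5 were higher and 10 lower (5 and 9 without KO library C), or 8 and 8 when values were rescaled without the 10 most abundant genes. Ikbke was at 14.4 ± 0.965 FPKM in KO-labelled libraries, against 4.75 ± 0.278 FPKM in Gr_1.

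Of 16 genes for interferon receptors and their JAK-STAT signal, 1 was higher and 3 lower in KO-labelled libraries than in fl, which became 0 higher and 1 lower without KO library C or fl library B, 1 and 1 without Gr_1 library B, and 2 and 1 without fl library A. In Gr_1 against fl 7 were higher and 2 lower, and in KO-labelled libraries against Gr_1 2 were higher and 9 lower. Ifnlr1, a receptor chain for interferon lambda, averaged 35.1 ± 1.04 FPKM in Gr_1 and 5.07 ± 0.289 FPKM in fl (log2 change 2.57, limma adjusted p = 4.21e-06), and the receptor kinase Jak1 averaged 67.5 ± 1.35 FPKM in Gr_1 and 33.0 ± 1.90 FPKM in fl. In the same comparison the kinase Tyk2 was lower (10.9 ± 0.400 FPKM in Gr_1 and 21.3 ± 1.60 FPKM in fl), as was Ifngr1, the receptor for interferon gamma (47.0 ± 4.04 FPKM in Gr_1 and 99.3 ± 7.17 FPKM in fl). Tyk2 was also lower in KO-labelled libraries than in fl, at 14.7 ± 0.785 FPKM against 21.3 ± 1.60 FPKM (limma adjusted p = 0.00307).

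Of 30 type I interferon-stimulated genes, the usual targets of the Irf9 complex, 13 were higher and 5 lower in Gr_1 than in fl, with a median log2 change of 0.44 against -0.03 for all genes. Ddx60, which assists RNA sensing, averaged 9.44 ± 0.596 FPKM in Gr_1 and 1.11 ± 0.393 FPKM in fl (limma adjusted p = 2.98e-05), and the nuclease Isg20 averaged 14.1 ± 1.86 FPKM in Gr_1 and 7.18 ± 0.717 FPKM in fl. Mx2 was lower, at 0.559 ± 0.201 FPKM in Gr_1 against 2.58 ± 0.399 FPKM in fl (limma adjusted p = 0.000193). The antiviral tether Bst2 was also lower, at 25.4 ± 3.68 FPKM in Gr_1 against 47.9 ± 2.84 FPKM in fl. In KO-labelled libraries against Gr_1, 4 were higher and 13 lower (median -0.49), which became 4 and 11 without KO library C and 2 and 12 without Gr_1 library B. In KO-labelled libraries against fl, 2 were higher and 3 lower (median -0.01), and the count rested on single libraries. It was 0 higher and 1 lower without KO library C, fl library B or fl library C, 0 and 4 without KO library A, 0 and 2 without Gr_1 library C, 1 and 2 without Gr_1 library A, 1 and 3 without Gr_1 library B, and 2 and 1 without fl library A.

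Of 26 tested genes linked to interferon gamma and Irf1, 6 were higher and 8 lower in Gr_1 than in fl, 1 was higher and 3 lower in KO-labelled libraries than in fl, and 5 were higher and 5 lower in KO-labelled libraries than in Gr_1 (10 and 3 after the rescaling, 4 and 8 without KO library A). Without KO library C the counts were 1 and 2 against fl and 4 and 5 against Gr_1, and without KO library B 2 and 2 against fl. These genes did not rise together in Gr_1, where Irf1 was higher. Il18bp, a decoy for interleukin 18, averaged 11.3 ± 0.222 FPKM in Gr_1 and 1.98 ± 0.122 FPKM in fl (limma adjusted p = 4.47e-07), while the immunoproteasome subunit gene Psmb10 averaged 24.7 ± 0.995 FPKM in Gr_1 and 54.1 ± 5.99 FPKM in fl (limma adjusted p = 9.34e-06). In KO-labelled libraries Il18bp was at 3.88 ± 0.200 FPKM and Psmb10 at 35.5 ± 0.764 FPKM, both called against fl. Ciita, the master regulator of MHC class II genes, averaged 1.07 ± 0.0683 FPKM in KO-labelled libraries and 2.06 ± 0.164 FPKM in fl (limma adjusted p = 0.00392).

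Genes of mononuclear phagocytes linked to Irf8 and PU.1 gave the most calls of any of these lists in KO against fl. Of 27 tested, 16 were lower and 0 higher in KO-labelled libraries than in fl (limma; by unadjusted p under 0.05 also 0, by voom 0), with a median log2 change of -0.74, and 11 were lower without KO library C. In Gr_1 against fl 21 were lower and 5 higher (median -1.02), and in KO-labelled libraries against Gr_1 14 were higher and 6 lower (median 0.39; 12 and 6 without KO library C, 19 and 5 after the rescaling). Csf1r, the macrophage growth factor receptor, averaged 47.1 ± 10.6 FPKM in KO-labelled libraries and 105 ± 2.69 FPKM in fl (limma adjusted p = 0.00179). The MHC class II gene H2-Ab1 averaged 75.2 ± 4.64 FPKM in KO-labelled libraries, 46.0 ± 4.61 FPKM in Gr_1 and 153 ± 18.1 FPKM in fl, the order of Irf8. Blnk, a B cell adaptor, and Bcl6, a repressor, went the other way, with Blnk at 7.11 ± 0.390 FPKM in Gr_1 and 1.46 ± 0.294 FPKM in fl and Bcl6 at 21.2 ± 0.891 FPKM in Gr_1 and 7.61 ± 0.388 FPKM in fl. Several genes of this list are also monocyte markers, so it is not independent of the marker counts above.

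Of 24 partners, cofactors and modifiers of the family, 3 were lower and 0 higher in KO-labelled libraries than in fl (limma; by unadjusted p under 0.05 it was 1, by voom 0). Without KO library C 2 were lower, and without KO library B 1 was higher. Batf3, a partner of Irf8 and Irf4, averaged 1.22 ± 0.254 FPKM in KO-labelled libraries and 2.71 ± 0.403 FPKM in fl (limma adjusted p = 0.00495), and the AP-1 subunit gene Junb averaged 235 ± 17.6 FPKM in KO-labelled libraries and 334 ± 8.13 FPKM in fl (limma adjusted p = 0.00491). In Gr_1 against fl 11 were higher and 7 lower, or 9 and 9 after the rescaling, and in KO-labelled libraries against Gr_1 4 were higher and 11 lower, or 9 and 10 after it; the 4 became 2 without KO library C or Gr_1 library A and 1 without Gr_1 library B, with 10 lower each time. Kdm6b, a histone demethylase, averaged 60.0 ± 1.80 FPKM in Gr_1 and 19.5 ± 0.729 FPKM in fl. Among 19 regulators of granulocyte and monocyte fate, 3 were higher and 4 lower in KO-labelled libraries than in fl (0 and 2 without KO library C, 1 and 2 without KO library B, fl library A or fl library B, 6 and 2 after the rescaling), 4 were higher and 6 lower in Gr_1 than in fl, and 6 were higher and 6 lower in KO-labelled libraries than in Gr_1 (5 and 5 without KO library C). Gfi1, a granulocyte regulator, averaged 38.8 ± 7.41 FPKM in KO-labelled libraries and 14.2 ± 0.434 FPKM in Gr_1 (limma adjusted p = 0.000169).

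**Figure D5:**
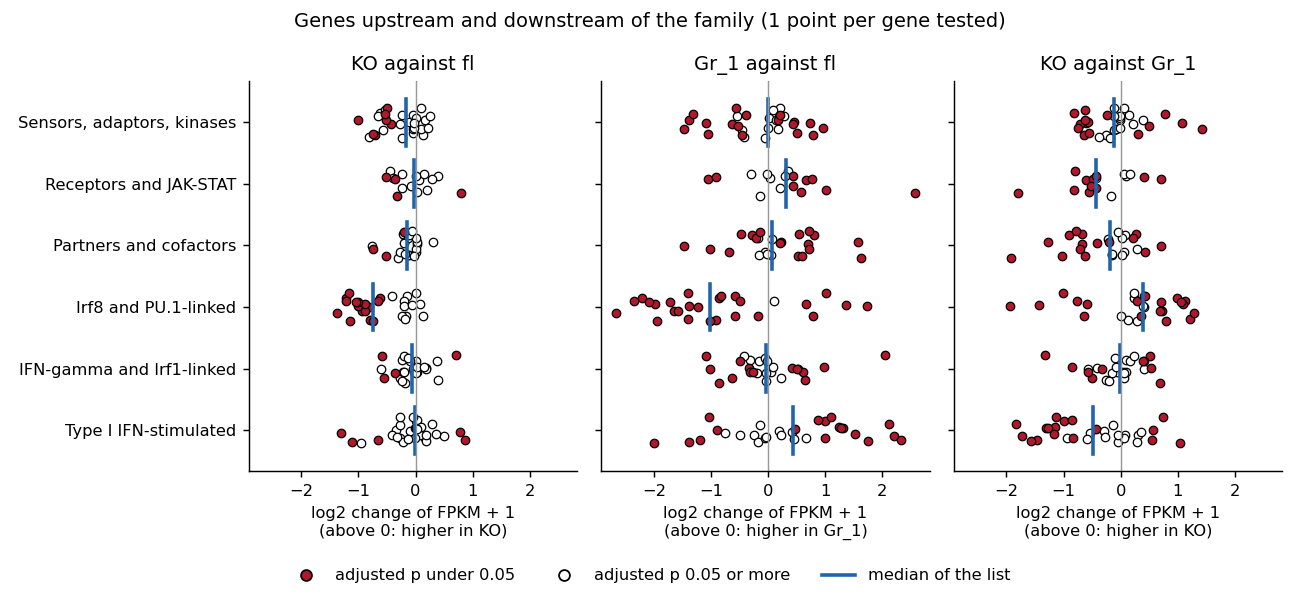
Fitted log2 change of each tested gene on the log2(FPKM + 1) scale (horizontal axis) for 6 lists (rows), in KO against fl, Gr_1 against fl and KO against Gr_1; filled points passed an adjusted p under 0.05 and the blue bar is the median of the list, with points spread vertically for legibility. The median of the list linked to Irf8 and PU.1 lies at -0.74 in KO against fl, -1.02 in Gr_1 against fl and 0.39 in KO against Gr_1, and that of the type I interferon-stimulated list at 0.44 in Gr_1 against fl.

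For each member the tested genes with the most similar profile over the 9 libraries were found by the root-mean-square difference of centred log2(FPKM + 1), where 0 is an identical profile. This is a description over 3 groups and carries no test. Irf8 was nearest to Tep1 (0.0664), Ctsa (0.0784) and Vwa5a (0.0791), and Irf5 to Lpar5 (0.0943), Plxnb2 (0.0992) and Sulf2 (0.109). Irf4 had no gene as near: Cecr2 (0.149), Cpm (0.162) and Cd79b (0.179) came first, the last of them a B cell receptor subunit gene. Irf7 was nearest to Siglec1 (0.192), Lst1 (0.195) and Usp18 (0.202), of which Siglec1 and Usp18 are interferon-induced. Irf1 was nearest to Tbc1d20 (0.0314), Zer1 (0.0465) and Grk6 (0.0517), and Irf2 to Irak2 (0.0664), Stat6 (0.0672) and Wipf1 (0.0686). Irf3 was nearest to H2afx (0.0481), Rpp21 (0.0531) and Ndufb7 (0.0537), and Irf9 to Nrbf2 (0.0714), Dyrk1b (0.0971) and Nod1 (0.0977).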

How the data were processed

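The authors deposited values named FPKM (fragments per kilobase of exon and per M fragments), 1 column a library, over 54532 Ensembl gene IDs. The submitters' processing notes name featureCounts 1.5.0-p3 and DESeq2 1.16.1, with no role given. No source used here names the aligner. Kit and instrument were Macherey-Nagel and NovaSeq (paired-end), per the labels' protocols.

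FPKM times exon length (GENCODE M21, GRCm38, 54495 genes matched) gave the fragments behind each value. The M fragments that the values imply per library were 19.87 to 21.75 in KO, 16.01 to 18.16 in Gr_1 and 18.49 to 22.0 in fl. Recovered were 19.04 to 20.12, 18.6 to 21.5 and 18.3 to 20.83 M in the same order. The deposited values were thus not scaled to recovered fragments alone. Between 97.22 and 97.46% of values under 1000 fragments came out whole within 0.02 fragments. Floors cover counting error only.

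The 12289 genes that reached 1 FPKM in 3 libraries or more were fitted as log2(FPKM + 1) by limma 3.58.1 in R 4.3.3, using its mean-variance trend, with the 9 libraries together, no block and 6 residual degrees of freedom. Two-sided p-values were adjusted by Benjamini-Hochberg over all genes tested and called under 0.05. The pseudocount understates changes of low genes. Fold values are ratios of mean FPKM, errors beside levels are SD and those beside log2 changes SE. Exact two-sided permutation tests of 3 against 3 cannot go below 0.1.

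The members and lists were chosen with earlier results of these data known. Named are all members, Socs3, from each list the 2 called genes per direction with the smallest adjusted p in each comparison, and the 3 nearest profiles per member, given as a selection of these. Lyz2, Xist, Ifng, single marker genes and genes overlapping a member were named after their values were seen. Promoters are from RefSeq (GRCm38.p6). Alternatives were another pseudocount, 2 other filters, rescaling, quantile normalization, voom on recovered fragments, 2 groups alone, a replicate block and leaving out each library. The voom fit took the M fragments implied by the deposited values as library sizes, so it kept their scaling. Tables and figures used Python 3.11.15, pandas 2.3.3, scipy 1.17.1 and matplotlib 3.10.9. Some genes that this rule names are not reported here.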

Additional observations from a re-analysis of the deposited data

How the results depend on the processing

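Over 17 alternative fits, the number of members called ranged from 2 to 3 in KO against fl (2 as reported), 5 to 6 in Gr_1 against fl (6) and 6 to 7 in KO against Gr_1 (7). Over all genes the calls ranged from 573 to 1621, 5292 to 8559 and 4869 to 7554 in the same order. The genes tested ranged from 7516 to 27778 with the filter. Of 408 member values under an alternative, 375 kept direction and side of the threshold, 19 lost a call, 9 gained one and 5 turned direction. All 5 were Irf3 in KO against Gr_1, -0.00 as reported: 0.20 after rescaling without the 10 most abundant genes, 0.13 after quantile normalization, and, leaving out 1 library at a time, from -0.08 (without KO library A) to 0.10 (without KO library B); the cause was not tested. Irf3 was called in Gr_1 against fl after the rescaling (adjusted p = 0.026) and quantile normalization (0.0391). Irf4 in KO against fl was called in 6 fits, at the lowest with adjusted p = 0.0277. The lost calls were those of Irf9 in Gr_1 against fl, called in 7 of 17, and Irf7 in KO against Gr_1, called in 8 of 17. With the title letter as a replicate block, 2, 6 and 7 members and 1037, 7280 and 6469 genes were called. Same-letter libraries had correlations of deviations from -0.0618 to 0.14, and not every library correlated best with its own letter. Such correlations over all genes cannot decide whether the letters pair the libraries. Irf7 and Irf9 each had library A highest and library B lowest in all 3 groups. The rescaling moved the median of all genes to 0.05 in KO against fl, -0.14 in Gr_1 against fl and 0.18 in KO against Gr_1. Genes called higher and lower were then 768 and 585 (551 and 801 as reported), 2919 and 4784 (3686 and 3864), and 5019 and 2418 (3287 and 3556). Over all genes, KO against fl gave 1352 calls, but 573 without KO library C, 818 without fl library A, 730 without fl library B and 797 with those groups alone. None of the 18 interferon ligands reached the filter, so the fit as reported holds none of them. Whether depth limits them was not tested.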
